A study of Mus musculus with 11 samples.

Results

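The genes of the cardiac myosin heavy chains, of 2 non-muscle relatives and of the myosin binding proteins were followed in mouse hearts after pulmonary artery banding (PAB): Myh6, Myh7, Myh7b, Mybpc3, Mybpc2, Mybphl, Myh9 and Myh10. They were chosen by name, and all 8 of 8 were found among 50600 genes listed and among the 15808 genes with enough counts to be tested. The data are read counts per gene from RNA-seq of hearts of wild type C57BL/6 mice that were banded or sham-operated on P0, the day of birth. The 11 libraries comprised 3 P3 sham and 3 P3 PAB as well as 3 P7 sham and 2 P7 PAB hearts, where P3 and P7 are postnatal days 3 and 7. In PAB the pulmonary artery is narrowed by a tied thread, which raises the pressure load on the right ventricle, and sham mice had the operation without the band. The labels name the tissue as heart and the methods of the study as ventricles, so the loaded right ventricle was not measured apart from the left, and neither source says whether a library came from 1 animal. The p-values below therefore measure only the spread between these libraries, which may be technical.

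Myosin heavy chains are the motor proteins of the thick filament. In the mouse heart Myh6 encodes the fast alpha chain and Myh7 the slow beta chain, which lie side by side on chromosome 14. The beta chain prevails in the ventricles before birth, the alpha chain takes over around birth, and a return of Myh7 is a classic mark of a heart under pressure load. Myosin binding proteins C, of which Mybpc3 encodes the cardiac form, sit on the thick filament and tune how its heads meet actin. Myh9 and Myh10 encode the heavy chains of non-muscle myosins IIA and IIB, which drive the shape changes and division of most cells.

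The 3 sarcomeric heavy chain genes each carry a microRNA inside an intron, on the same strand and with 0 bases in exons of the host. Their mature sequences from RefSeq (GRCm38.p6) are shown because they tie the heavy chain loci together, with the seed, bases 2 to 8, in capitals.
mmu-miR-208a-3p, in Myh6 (chr14:54949072-54949093, minus strand): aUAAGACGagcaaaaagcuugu
mmu-miR-208b-3p, in Myh7 (chr14:54975710-54975731, minus strand): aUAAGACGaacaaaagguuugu
mmu-miR-499-5p, in Myh7b (chr2:155622893-155622913, plus strand): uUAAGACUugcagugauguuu
The first pair shared all 7 seed bases and 19 of 22 bases counted from the 5′ end, and miR-499-5p shared 6 of 7 seed bases with each. The host genes differed widely in level, as described below. The rows of Mir208a, Mir208b and Mir499 were at 0 counts in all 11 libraries, which allows up to 3 counts each, or 0.112 to 0.156 CPM (counts per 1000000 counts) depending on the library, so the libraries give no level for the microRNAs.

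Myh6 and Myh7 are alike enough that reads can be hard to place. Their coding sequences were 91.4% identical. Of the 6014 windows of 100 bases, a length chosen here that sets the share, in the Myh6 transcript, 687 or 11.4% occurred without a mismatch in Myh7. The longest run in common held 245 coding bases and is shown because no single read inside it can tell alpha from beta. It covers parts of exons 30 and 31 of Myh6 (chr14:54948612-54948725 and chr14:54948327-54948457, minus strand) and of exons 32 and 33 of Myh7 (chr14:54975234-54975347 and chr14:54974947-54975077, minus strand), all in GRCm38.
Run in common of Myh6 and Myh7: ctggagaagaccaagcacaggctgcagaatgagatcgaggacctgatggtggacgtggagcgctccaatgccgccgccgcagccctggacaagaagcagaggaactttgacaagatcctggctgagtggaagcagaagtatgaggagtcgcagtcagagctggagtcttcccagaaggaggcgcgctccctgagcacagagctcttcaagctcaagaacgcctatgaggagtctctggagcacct
How such reads were counted is not given in the sources used here, so the low Myh7 counts carry an uncertainty from reads of Myh6 that is outside the errors given. Myh7b had 0 such windows with either gene, and Myh9 and Myh10 had 23 in common, 0.314% of those in Myh9. Without a stated strand setting, reads of Myh7 and its antisense neighbour Mhrt cannot be told apart over the 484 exonic bases they share, which are 39.9% of Mhrt.

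Depth was 19274045 to 26820228 counts per library. Values below are CPM scaled by TMM, a factor that corrects for differences in composition, and differences come from edgeR's quasi-likelihood test over all 11 libraries with Benjamini-Hochberg adjustment over 15808 genes. A gene was called when its fold change was at least 1.5 and its adjusted p at most 0.05. Some features of the libraries moved with the groups. The X-linked Xist reached 1061 CPM in P3 sham replicate 1 and 630 to 936 CPM in all 3 libraries of P7 sham, with 0.303 to 0.873 CPM in the other 7, while the Y-linked Ddx3y was at 0 to 0.437 CPM in those 4 and at 42.9 to 51.0 CPM in the 7. Within P7, PAB and the sex-linked transcripts cannot be told apart, so values from a fit with Xist class as a term, which rests on P3 sham replicate 1 alone, are given where they change a call. The mitochondrially encoded share of counts was 11.4% to 13.05% at P3, 21.1% to 22.2% in P7 sham and at most 18.1% in P7 PAB. In the P7 PAB libraries levels also fell with gene length, by 0.15 and 0.14 on the log2 scale per doubling of exonic length, against slopes of -0.03 to 0.07 in the other 9, and a fit with this trend removed is given where it changes a call. All 10 cardiomyocyte markers were present. The 4 ventricular markers summed to 14638 to 15378 CPM in P7 PAB and 9808 to 11505 CPM in the other groups, against 122 to 274 CPM for 7 atrial markers. Of the cardiomyocyte markers at P7, Tnnc1 (log2 difference 0.80) and Actc1 (0.65) were called higher in PAB and Ryr2 (-0.90) and Atp2a2 (-0.63) lower. Of all genes tested 9.63% were called higher there and 8.59% lower. In whole tissue, fewer cells of a type and less RNA per cell cannot be told apart.

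Levels of different genes were compared per kb of exon, with the exons of all annotated transcripts of a gene merged. The coding transcript, taken as that with the longest coding sequence, was shorter for some genes. It had 7433 against 12928 bases for Myh9, 7759 against 10458 for Myh10, 6135 against 8616 for Myh7 and 6163 against 6634 for Myh7b. The order of genes at similar levels therefore depends on the length used. Myh6 was highest in every group, at 4365 ± 143 CPM per kb (SD, n = 3) in P3 sham and 2566 ± 132 (n = 2) in P7 PAB, followed by Mybpc3 at 852 ± 34.3 in P3 sham and 1001 ± 18.3 in P7 PAB. Myh7 came next in 3 of the 4 groups, at 63.8 ± 12.01 CPM per kb in P3 sham, 142 ± 49.8 in P3 PAB and 143 ± 29.8 in P7 PAB. In P7 sham it was 32.1 ± 8.02, which did not differ beyond the spread from Myh7b at 29.2 ± 2.74 or Myh9 at 26.8 ± 2.75. By merged exons Myh7b, Myh9 and Myh10 lay close together, at 32.9 ± 3.67, 28.9 ± 0.495 and 27.6 ± 0.771 CPM per kb in P3 sham. In P7 PAB they were at 19.7 ± 3.79, 17.4 ± 0.608 and 17.9 ± 0.866, neighbours whose order there was within the spread. Their closeness rests on this length, which exceeds the coding transcript more for Myh9 and Myh10 than for Myh7b. Mybpc2 at 4.49 ± 1.35 and Mybphl at 2.40 ± 1.103 CPM per kb in P3 sham were lowest, a pair that lay apart by less than the sum of their SDs there and by more in P7 PAB (9.56 ± 0.0446 and 2.54 ± 0.0401).

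**Figure D1:**
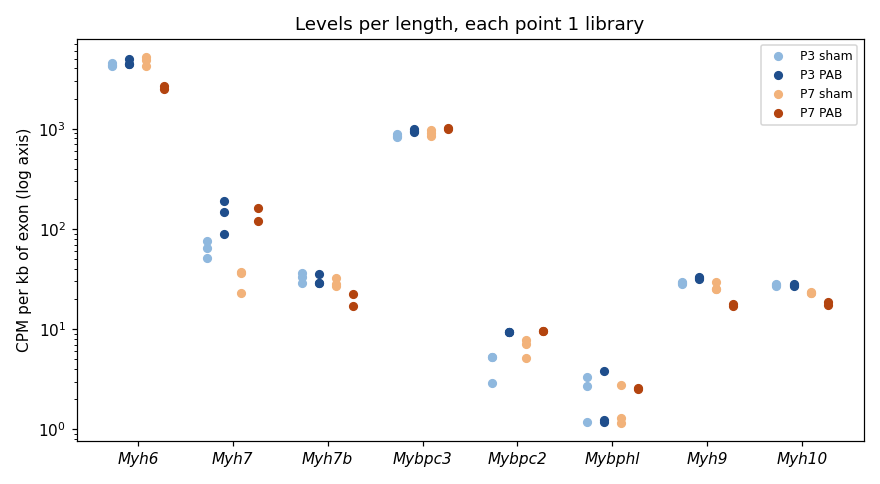
Level per length of each of the 8 genes, in CPM per kb of exon on a log axis. Each point is 1 library, coloured by group. Myh6 and Mybpc3 stand highest, between 2472 and 5180 and between 821 and 1014 CPM per kb, and Mybphl lay between 1.16 and 3.82, below the others in every library but P3 sham replicate 3, where Mybpc2 was lower (2.93 against 3.32).

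The question of the first comparison was what pressure load does by P3. Of the 8 genes, 1 was called higher in P3 PAB than in P3 sham, Mybpc2, and 0 lower; 0.108% of all genes tested were called higher and 0.0190% lower. At P7, when load had lasted a week, 1 was called higher in PAB, Myh7, and 2 lower, Myh6 and Myh9, beside 9.63% of all genes higher and 8.59% lower. From P3 to P7 in sham hearts, the course of normal growth, 0 were called higher and 1 lower, Myh7, beside 5.62% and 5.73% of all genes. From P3 to P7 in PAB hearts 0 were called higher and 4 lower, Myh6, Myh7b, Myh9 and Myh10, beside 9.50% and 8.20%. The PAB effect differed between the ages, by the interaction of age and operation at an adjusted p of at most 0.05, for 5 of the 8, Myh6, Myh7, Myh7b, Myh9 and Myh10, beside 25.9% of all genes. Each count of 0 was also 0 at an unadjusted p of at most 0.05 and with the DESeq2 Wald test. The comparisons share libraries and are not independent, since the P7 sham libraries serve in the P7 comparison and in that over age, and all 11 in the last. The median difference over all genes tested was between -0.004 and 0.008 (log2) in each.

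**Figure D2:**
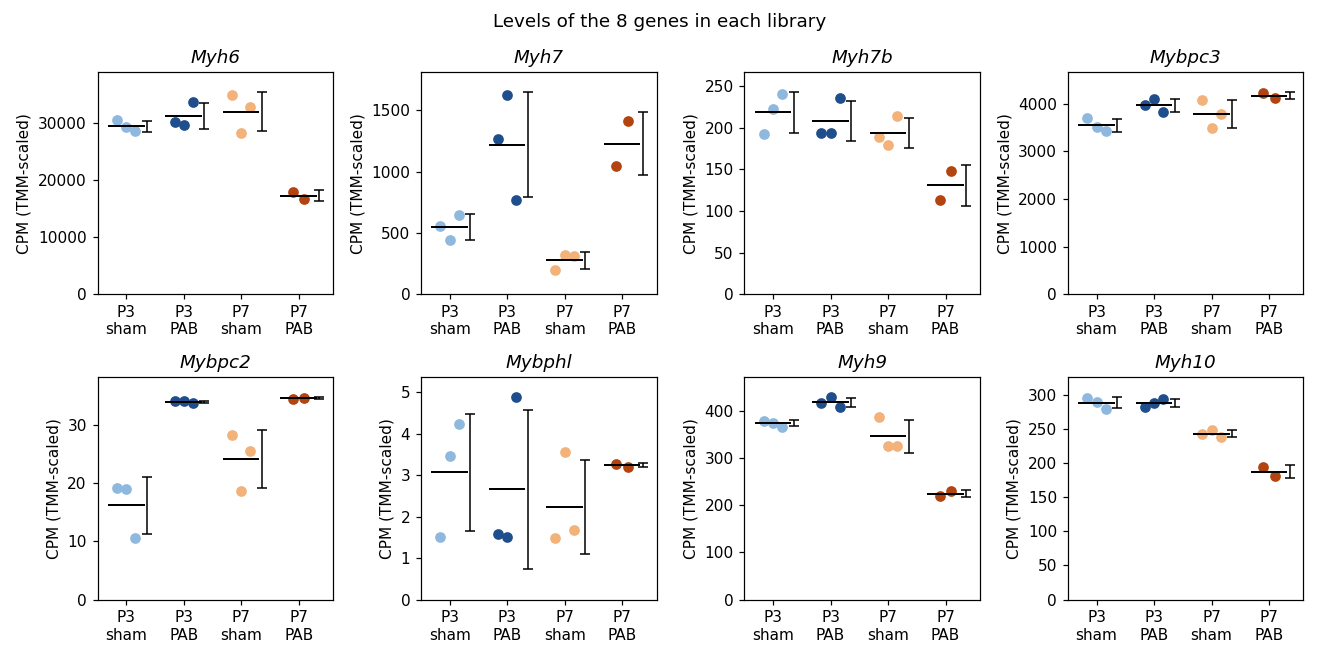
TMM-scaled CPM of each of the 8 genes in every library, on linear axes that start at 0. Points are libraries in order of replicate, black bars are group means and the error bars beside them are SD (n = 3, and n = 2 for P7 PAB). The 2 P7 PAB libraries lie below all others for Myh6, Myh7b, Myh9 and Myh10, and the P7 sham libraries below all others for Myh7.

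Myh7, the slow beta chain (ENSMUSG00000053093, GRCm38 chr14:54970684-54994626, minus strand), was at 556, 443 and 649 CPM in P3 sham and at 1262, 1625 and 770 CPM in P3 PAB. Every P3 PAB library lay above every P3 sham library, with P3 PAB replicate 3 well below the other two. The fitted fold change was 2.22, a log2 difference of 1.15 ± 0.23 (SE), and it was not called, at an adjusted p of 0.0736. It was called with the DESeq2 Wald test (adjusted p = 0.0455), with a fit of the P3 groups alone (0.0378), and without P3 PAB replicate 3 (1.40, adjusted p = 0.0252) or P7 sham replicate 1 (0.0387), and over 22 alternatives the adjusted p was 0.00213 to 0.328, a range that leaves out the fit without a filter on low counts (4.7e-47). Without P3 sham replicate 1, the 1 P3 library high in Xist, the log2 difference was 1.16 (adjusted p = 0.155).

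At P7 Myh7 was at 197, 320 and 312 CPM in sham and 1046 and 1409 CPM in PAB. The groups lay far apart, and Myh7 was 4.44-fold higher in PAB, a log2 difference of 2.15 ± 0.25 (adjusted p = 1.3e-05). The difference was called under each alternative tried, at 1.92 to 2.37 with an adjusted p of at most 0.00456. In sham hearts Myh7 fell by 0.99 on the log2 scale from P3 to P7 (SE 0.23, adjusted p = 0.00438), to 276 ± 69.1 CPM from 549 ± 104, whereas in PAB hearts it was 1219 ± 429 CPM at P3 and 1228 ± 257 at P7 (log2 difference 0.01 ± 0.26, adjusted p = 0.978, and -0.24 with total-count scaling). The PAB effect was larger at P7 than at P3 by 1.00 ± 0.34 (log2, adjusted p = 0.0425). The interaction call was lost with DESeq2 (adjusted p = 0.0960), with Xist class as a term (1.02, adjusted p = 0.114), and without any 1 of 6 libraries, P3 sham replicates 1 and 3, P3 PAB replicates 1 and 3, P7 sham replicate 1 and P7 PAB replicate 2 (0.74 to 1.03, adjusted p = 0.0671 to 0.165).

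Myh6, the fast alpha chain (ENSMUSG00000040752, chr14:54941921-54966927, minus strand), held 3.25% of all counts in P3 sham. It was at 30375, 29238 and 28463 CPM in P3 sham, 30102, 29521 and 33660 in P3 PAB, 34842, 28176 and 32740 in P7 sham, and 17887 and 16628 in P7 PAB. The 9 libraries of the other groups overlapped, and both P7 PAB libraries lay far below them. At P3 the log2 difference was 0.08 ± 0.08 (adjusted p = 0.848). At P7 Myh6 fell 1.85-fold under PAB, a log2 difference of -0.89 ± 0.09 (adjusted p = 3.9e-06), and it fell by 0.85 on the log2 scale from P3 to P7 in PAB hearts (SE 0.09, adjusted p = 5.3e-06). In sham hearts the age difference was 0.12 ± 0.08 (adjusted p = 0.256), and it turned to -0.19 when libraries were scaled by their total count (adjusted p = 0.0186), which moved the median of all genes by -0.31. The interaction was -0.97 ± 0.12 (adjusted p = 1.1e-04). With the gene length trend removed the P7 difference was -0.75 (adjusted p = 2.5e-05) and with Xist class as a term -0.81 (adjusted p = 0.00471), both still called.

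Within a library the balance of the 2 chains needs no scaling. Of the counts of Myh6 plus Myh7, Myh7 held 1.80%, 1.49% and 2.23% in P3 sham, 4.02%, 5.22% and 2.24% in P3 PAB, 0.561%, 1.12% and 0.944% in P7 sham, and 5.53% and 7.81% in P7 PAB. The highest P3 sham and the lowest P3 PAB library met, with 95% Wilson intervals, which cover counting error only, of 2.19% to 2.27% and 2.21% to 2.27%, and both P7 PAB libraries lay above all 9 others. The difference of PAB from sham was 1.99 percentage points at P3 and 5.79 at P7, each with p = 0.1 in an exact two-sided permutation test, the smallest p that 3 against 3 or 3 against 2 libraries allowed here. The P3 difference was 1.29 points without P3 PAB replicate 2. With operation permuted within each age, the mean difference was 3.89 points (exact permutation test, two-sided, p = 0.005, the smallest that the 200 splits can give), and PAB was higher at both ages. Without any 1 library it was 3.32 to 4.46 points. The difference of P7 from P3 was -0.964 points in sham hearts (exact permutation p = 0.1) and 2.84 points in PAB hearts (p = 0.2), or 1.70 without P7 PAB replicate 2. Divided by the length of the merged exons, 8616 bases for Myh7 and 6726 for Myh6, the mean shares were 1.44% ± 0.292, 3.01% ± 1.19, 0.685% ± 0.225 and 5.29% ± 1.299 (SD) in the order above. Divided by the length of the coding transcript, 6135 and 6113 bases, they were 1.83% ± 0.370, 3.81% ± 1.496, 0.873% ± 0.286 and 6.65% ± 1.611. Myh6 prevailed in every library.

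**Figure D3:**
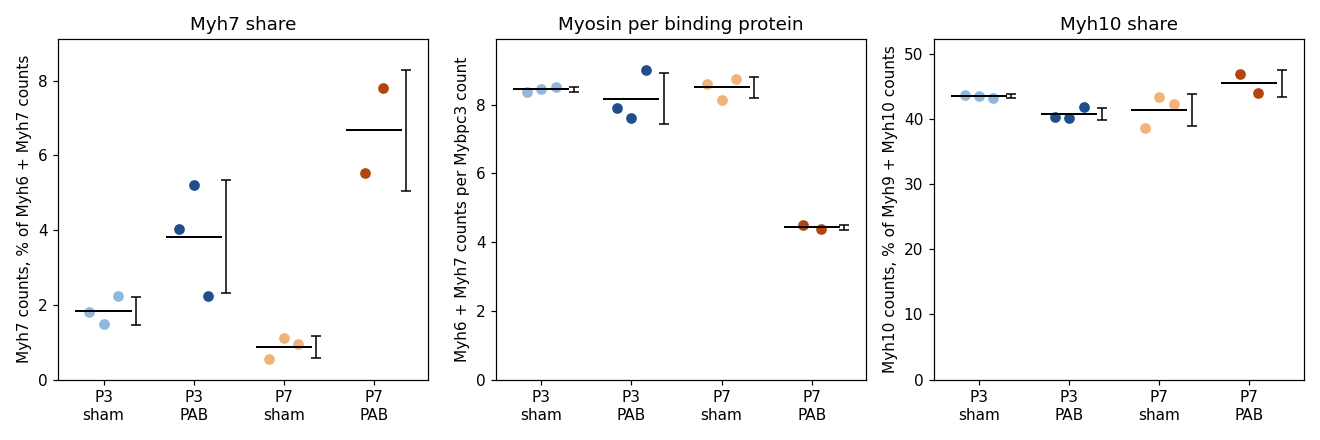
Balance between pairs of genes in every library: the percentage of Myh6 plus Myh7 counts that are Myh7, the Myh6 plus Myh7 counts per Mybpc3 count, and the percentage of Myh9 plus Myh10 counts that are Myh10. Points are libraries, black bars group means and error bars SD. The Myh7 share is highest in the 2 P7 PAB libraries, at 5.53% and 7.81%, where the myosin counts per Mybpc3 count are lowest, at 4.49 and 4.39.

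Myh7b (ENSMUSG00000074652, chr2:155611212-155634307, plus strand) encodes a further sarcomeric heavy chain. It was at 192, 222 and 241 CPM in P3 sham, 194, 194 and 236 in P3 PAB, 188, 179 and 214 in P7 sham, and 113 and 148 in P7 PAB. Both P7 PAB libraries were lower than all others. The P7 difference was -0.57 ± 0.13 (log2, adjusted p = 0.00223), a 1.48-fold difference that missed the fold threshold. It passed with Xist class as a term (-0.84, adjusted p = 0.0126) and without P7 sham replicate 1 (-0.59), P7 sham replicate 2 (-0.62) or P7 PAB replicate 2 (-0.78). It was smaller with the gene length trend removed (-0.44) and without P7 PAB replicate 1 (-0.39, adjusted p = 0.0543). From P3 to P7 in PAB hearts Myh7b fell by 0.67 on the log2 scale (SE 0.13, adjusted p = 7.1e-04), a call that did not hold with the gene length trend removed (-0.55) or without P3 PAB replicate 3 (-0.58) or P7 PAB replicate 1 (-0.49), all under the fold threshold. The interaction, -0.50 ± 0.17 (adjusted p = 0.0431), was lost with the gene length trend removed (-0.39, adjusted p = 0.107), with total-count scaling (adjusted p = 0.0877), and without P3 sham replicate 1 or 2, P3 PAB replicate 3, P7 sham replicate 3 or P7 PAB replicate 1 (-0.51 to -0.31, adjusted p = 0.0680 to 0.234).

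Among the binding proteins, Mybpc3 (ENSMUSG00000002100, chr2:91118144-91136516, plus strand), the cardiac myosin binding protein C, did not pass the test in any comparison. It was at 3700, 3514 and 3419 CPM in P3 sham, 3975, 4096 and 3822 in P3 PAB, 4074, 3499 and 3776 in P7 sham, and 4220 and 4112 in P7 PAB. PAB libraries were the higher at both ages, with no overlap, but by little. The log2 difference was 0.16 ± 0.07 at P3 (adjusted p = 0.535) and 0.14 ± 0.08 at P7 (adjusted p = 0.149). Without 1 library the P7 value was 0.09 to 0.20, lowest without P7 sham replicate 2 and highest without P7 sham replicate 1 (adjusted p = 0.0403). Against the heavy chains the picture was different, as there were 8.36 to 8.51 Myh6 plus Myh7 counts per Mybpc3 count in P3 sham, 7.60 to 9.01 in P3 PAB, 8.14 to 8.75 in P7 sham, and 4.49 and 4.39 in P7 PAB. The ratio of Mybpc3 to Myh6 plus Myh7 was 0.94 higher on the log2 scale in PAB at P7 (exact permutation p = 0.1) and 0.05 higher at P3 (p = 0.5), the latter 0.028, 0.0015 or 0.124 without P3 PAB replicate 1, 2 or 3. With operation permuted within age the mean was 0.49 (exact permutation test, two-sided, p = 0.025). Without any 1 P7 library the smallest p that the splits could give rose, and p was 0.0625 to 0.0833 with the mean at 0.47 to 0.53 over all libraries left out in turn.

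Mybpc2 (ENSMUSG00000038670, chr7:44501699-44524656, minus strand) encodes the binding protein C of fast skeletal muscle and was low, at 19.2, 18.9 and 10.6 CPM in P3 sham and 34.0, 34.1 and 33.8 CPM in P3 PAB, or 230 to 831 counts. The P3 PAB libraries agreed closely and lay above all sham libraries. It rose 2.08-fold under PAB at P3, a log2 difference of 1.06 ± 0.17 (adjusted p = 0.0190). The call was lost without P3 PAB replicate 1 (adjusted p = 0.0881), 2 (0.0764) or 3 (0.0622), at log2 differences that stayed at 1.06 to 1.07, and without P3 sham replicate 1 the difference was 1.19 (adjusted p = 0.0267). Over all libraries left out in turn the P3 difference was 0.835 to 1.19. At P7 Mybpc2 was at 28.3, 18.7 and 25.6 CPM in sham and 34.4 and 34.6 in PAB. The log2 difference of 0.51 ± 0.19 (adjusted p = 0.0344) missed the fold threshold, and passed it without P7 sham replicate 1 (0.64). Its adjusted p was past 0.05 with DESeq2 (0.114), with the gene length trend removed (0.43, 0.0746), with Xist class as a term (0.88, 0.0619), with a replicate block (0.45, 0.0648), and without P7 sham replicate 2 (0.36, 0.134), P7 sham replicate 3 (0.0507) or P7 PAB replicate 1 (0.116) or 2 (0.103). In sham hearts Mybpc2 was 0.57 ± 0.17 higher at P7 than at P3 (log2, adjusted p = 0.0209), again short of the fold threshold, and past it with the gene length trend removed (0.60) and without P3 sham replicate 1 (0.70), P3 sham replicate 2 (0.70) or P7 sham replicate 2 (0.72). The adjusted p was past 0.05 with DESeq2 (0.0542), with total-count scaling (0.26, 0.196), with Xist class as a term (0.34, 0.374), and without P3 sham replicate 3 (0.35, 0.0561) or P7 sham replicate 1 (0.45, 0.0783) or 3 (0.53, 0.0651). Other fast skeletal genes were measured beside it, and their part in the result was not tested. The 15 markers of fast skeletal muscle, none at 0 in all libraries, summed to 18.7 to 29.0 CPM in P3 sham, 39.9 to 41.2 in P3 PAB, 13.5 to 20.5 in P7 sham and 72.8 to 119 in P7 PAB, most of it from Casq1, the calsequestrin of fast fibres. Casq1 was at 8.21 to 22.1 CPM in the sham libraries, 31.3 to 33.0 CPM in P3 PAB and 66.1 to 111 CPM in P7 PAB. The other 14 markers were each at most 3.46 CPM in every library, with the highest value for Myh8, and Myh1, Myh2, Myh4, Tnnc2, Actn3 and Pvalb were at 0 to 0.457 CPM. Of the 8 markers tested, 0 were called at P3, where their median log2 difference was 0.62 and their differences ran from -0.90 for Atp2a1 to 0.94 for Myh8, and 2, Casq1 and Myh8, were called higher at P7, the latter not with Xist class as a term. Of all genes tested, 0.108% at P3 and 9.63% at P7 were called higher.

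Mybphl (ENSMUSG00000068745, chr3:108364911-108380057, plus strand), a relative of the binding proteins known from atria and the conduction system, had 30 to 120 counts per library. Its levels were 1.502, 3.46 and 4.23 CPM in P3 sham, 1.58, 1.52 and 4.87 in P3 PAB, 1.48, 3.55 and 1.68 in P7 sham, and 3.28 and 3.20 in P7 PAB. All groups overlapped, the fitted log2 differences were -0.20 ± 0.43 at P3 and 0.54 ± 0.50 at P7 (adjusted p = 0.956 and 0.401), and neither passed the test. Without 1 library the P7 value was 0.33 to 1.03, lowest without P7 sham replicate 1 and highest without P7 sham replicate 2, and with Xist class as a term it was -0.81. The 7 atrial markers, whose part was not tested, summed to 135 to 222, 122 to 274, 123 to 174 and 196 to 224 CPM in the 4 groups in that order. They moved both ways at P7, where Myl4 (log2 difference 1.31) was called higher in PAB and Kcnj3 (-1.50) and Nr2f2 (-0.89) lower. Of all genes tested 9.63% were called higher there and 8.59% lower.

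**Figure D4:**
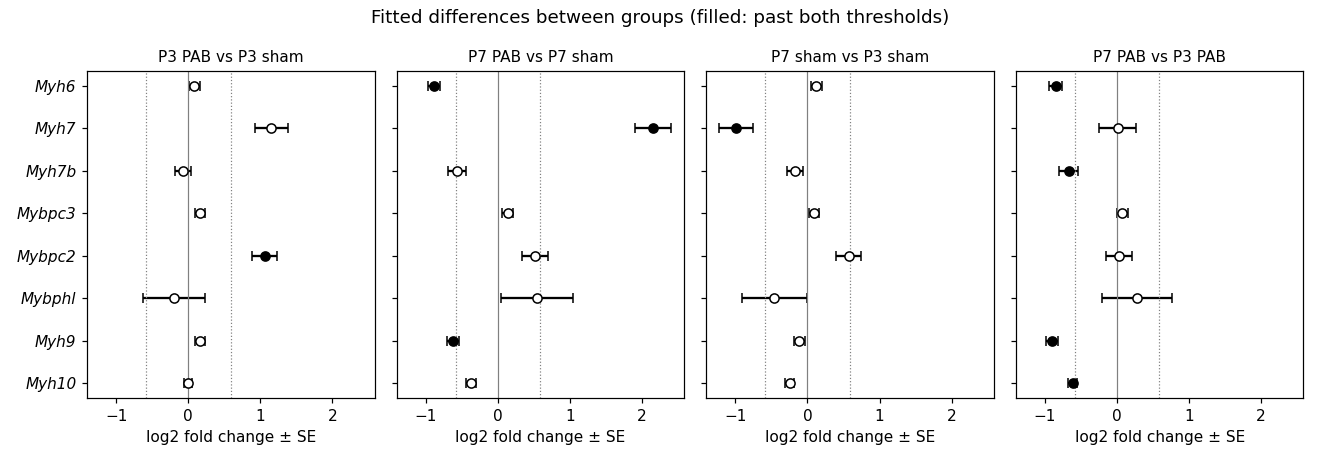
Log2 fold change with its SE for each of the 8 genes in 4 comparisons, from edgeR. Filled points passed both thresholds, and dotted lines mark a fold change of 1.5 in either direction. Myh7 stands at 1.15 at P3 without being called and at 2.15 at P7, and 4 genes lie to the left in PAB hearts over age.

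Both non-muscle heavy chains fell from P3 to P7 in PAB hearts. Myh9 (ENSMUSG00000022443, chr15:77760587-77842175, minus strand) was at 380, 375 and 367 CPM in P3 sham, 417, 429 and 409 in P3 PAB, 387, 325 and 326 in P7 sham, and 219 and 230 in P7 PAB. P3 PAB libraries were above P3 sham without overlap (log2 difference 0.16 ± 0.07, adjusted p = 0.583), and P7 PAB libraries were lowest of all. Myh9 fell 1.54-fold under PAB at P7, a log2 difference of -0.62 ± 0.08 (adjusted p = 3.6e-05). It fell by 0.90 on the log2 scale from P3 to P7 in PAB hearts (SE 0.08, adjusted p = 2.0e-06), and the interaction was -0.78 ± 0.11 (adjusted p = 2.8e-04). Myh9 has the longest exonic length of the 8, 12928 bases, and with the gene length trend removed its P7 difference shrank to -0.29 (adjusted p = 0.0364), under the fold threshold, as it was without P7 sham replicate 1 (-0.53, adjusted p = 2.6e-05). Markers of other cell types were measured beside Myh9, and their part was not tested. At P7 the 8 fibroblast markers summed to 5999 to 6067 CPM in sham and 4573 to 5449 in PAB. The 7 endothelial markers summed to 1492 to 1551 and 1231 to 1353 CPM, and the 7 macrophage markers to 107.9 to 149.2 and 101.5 to 118.5. Of these markers Col3a1, Pdgfra and Mrc1 were called lower in PAB and Egfl7 higher, beside 8.59% and 9.63% of all genes tested.

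Myh10 (ENSMUSG00000020900, chr11:68691559-68816632, plus strand) was at 295, 290 and 280 CPM in P3 sham, 282, 288 and 294 in P3 PAB, 243, 249 and 238 in P7 sham, and 194 and 181 in P7 PAB. The P3 groups overlapped, the P7 sham libraries lay below them and the P7 PAB libraries lower still. In sham hearts the difference over age was -0.24 ± 0.06 (log2, adjusted p = 0.00604), and that of PAB from sham at P7 was -0.38 ± 0.07 (adjusted p = 4.4e-04), both under the fold threshold. From P3 to P7 in PAB hearts Myh10 fell by 0.62 on the log2 scale (SE 0.07, adjusted p = 8.2e-06), and the interaction was -0.37 ± 0.09 (adjusted p = 0.00801). Myh10 has 10458 exonic bases, and with the gene length trend removed the values were -0.39 over age, under the fold threshold, -0.11 at P7 (adjusted p = 0.237) and -0.14 for the interaction (adjusted p = 0.308). The age difference in PAB hearts was also under the fold threshold without P7 PAB replicate 2 (-0.57), and with Xist class as a term the adjusted p was 0.0640 at P7 (-0.32) and 0.0569 for the interaction.

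Of the counts of Myh9 plus Myh10, Myh10 held 43.5% ± 0.268 (SD) in sham and 40.8% ± 0.940 in PAB hearts at P3, and 41.4% ± 2.501 in sham and 45.5% ± 2.06 in PAB hearts at P7. The difference of PAB from sham was -2.78 points at P3 (exact permutation p = 0.1) and 4.10 points at P7 (p = 0.2), and the mean over both ages was 0.662 points (exact permutation p = 0.705). The P7 difference was 2.69 points without P7 sham replicate 1 and 2.64 without P7 PAB replicate 1, and the mean was then -0.0428 and -0.0677.

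**Figure D5:**
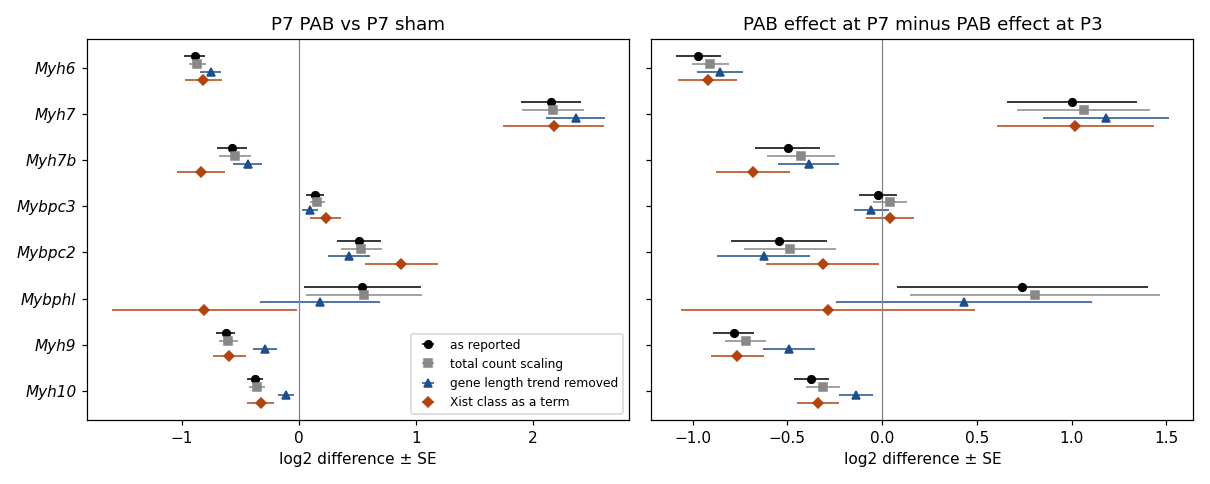
Log2 difference with its SE for each of the 8 genes at P7 (left) and for the PAB effect at P7 minus that at P3 (right), as reported and under 3 other settings. Myh6 and Myh7 keep their place in the left panel, at -0.89 to -0.75 and 2.15 to 2.37, while Myh9 and Myh10 move towards 0 once the gene length trend is removed, to -0.29 and -0.11.

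The genes whose pattern over the 11 libraries lay nearest to that of Myh7, of 9229 with a mean of at least 10 CPM, were Nkd2, Rbp7, Tubb2b, Angptl4 and Ears2. The root mean square distance of their centred log2 CPM was 0.476 to 0.571, against 0.950 for a flat line. Angptl4, for example, a secreted inhibitor of lipoprotein lipase, averaged 93.4 CPM in sham and 107 in PAB at P3, and 22.4 in sham and 95.7 in PAB at P7. Nearest to Myh6 were Scaf4, Zfp553, Trio, Srrm1 and Zfp462, at 0.0993 to 0.117 against 0.335 for a flat line. Trio, a guanine nucleotide exchange factor, averaged 90.6, 95.1, 94.4 and 55.9 CPM in the same order. These are descriptions of libraries that share their depth and composition, and carry no test.

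Partners of the 8 genes were taken from lists by role, and their P7 calls were also read from the fits with the gene length trend removed and with Xist class as a term, a choice made after seeing the data. Of 12 myosin light chains 11 were tested, 0 were called at P3 and 4 were called higher in PAB at P7, where 0.108% and 9.63% of all genes tested were called higher. They were Myl9, the regulatory chain of smooth muscle and non-muscle myosin (179 ± 37.5 CPM in sham and 620 ± 250 in PAB, log2 difference 1.79 ± 0.21, adjusted p = 1.0e-05), Myl1 of fast skeletal muscle (1.62 ± 0.24, adjusted p = 7.5e-05), Myl4 of the atria (1.31 ± 0.34, adjusted p = 0.00528) and, named after its value was seen, Myl6 of smooth muscle and non-muscle myosin (0.91 ± 0.07, adjusted p = 7.4e-07). Myl4 was not called with Xist class as a term (0.53, adjusted p = 0.522), while Myl12a, named after its value was seen, was called there (0.82, adjusted p = 0.00607). The 0 at P3 was also 0 at an unadjusted p and with DESeq2. The median of the list was 0.51 at P7, and 0.26 with the gene length trend removed, against -0.004 for all genes tested. The light chain genes were short, with a median of 2044 exonic bases against 4174 over all genes tested. The ventricular chains Myl2 and Myl3, also named after their values were seen, differed by 0.47 and 0.51 at P7, under the fold threshold. In sham hearts Myl12b rose from P3 to P7 (0.75 ± 0.08, adjusted p = 9.9e-06) and Myl9 fell by 1.31 on the log2 scale (SE 0.19, adjusted p = 1.2e-04). The 5 smooth muscle markers summed to 977 to 1063 CPM in P3 sham, 1016 to 1422 in P3 PAB, 803 to 993 in P7 sham and 972 to 1118 in P7 PAB, and their part was not tested. Most of each sum came from Acta2, at 479 to 1136 CPM. At P7 Cnn1 (3.23 to 5.96 CPM in sham and 24.4 to 31.6 in PAB, log2 difference 2.56) and Tagln (35.0 to 43.2 and 83.3 to 88.9 CPM, 1.185) were called higher, and 0 lower. Of all genes tested 9.63% were called higher and 8.59% lower. In sham hearts over age Cnn1 fell by 0.87 on the log2 scale and Myh11 rose by 0.79.

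Of 9 other heavy chains 4 were tested, with 0 called at P3 (also 0 with DESeq2, and 1, Myh8, higher at an unadjusted p), 1 higher and 1 lower at P7, beside 9.63% and 8.59% of all genes tested, and a median of 0.35 at either age. At P7 the median was 0.59 with the gene length trend removed and 0.05 with Xist class as a term. Myh14, a further non-muscle chain, fell by 1.24 on the log2 scale under PAB at P7 (SE 0.20, adjusted p = 2.1e-04), from 44.9 ± 2.80 CPM in sham to 19.1 ± 2.77. In sham hearts it rose over age from 17.2 ± 5.36 CPM (1.38 ± 0.18, adjusted p = 5.0e-05). Myh11 of smooth muscle rose over age in sham hearts (0.79 ± 0.11, adjusted p = 1.2e-04). Myh8, the perinatal skeletal chain, named after its value was seen, rose under PAB at P7 (0.93 ± 0.29, adjusted p = 0.0171) from 1.32 ± 0.383 to 2.48 ± 0.509 CPM, a call lost with Xist class as a term (0.80, adjusted p = 0.296).

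Of 11 other binding proteins and thick filament or M-band partners 10 were tested, with 1 called higher at P3, 3 higher at P7 and 0 lower at either age, and medians of 0.10 and -0.08. Over all genes tested, 0.108% at P3 and 9.63% at P7 were called higher, and 0.0190% and 8.59% lower. The median at P7 was 0.17 with the gene length trend removed and -0.24 with Xist class as a term. Fhl1, a LIM-domain protein of the sarcomere, rose under PAB at both ages, from 147 ± 12.3 to 251 ± 29.2 CPM at P3 (0.77 ± 0.10, adjusted p = 0.00897) and from 124 ± 9.70 to 340 ± 55.4 at P7 (1.46 ± 0.11, adjusted p = 6.2e-07). Its relative Fhl2 rose at P7 (0.59 ± 0.08, adjusted p = 3.1e-05), a call lost with the gene length trend removed (0.32) and with Xist class as a term (0.48). Mybpc1, the slow skeletal binding protein C, named after its value was seen, also rose at P7 (2.00 ± 0.51, adjusted p = 0.00528), to 0.694 ± 0.00628 CPM, but was not called with DESeq2 and turned direction with Xist class as a term (-1.63, adjusted p = 0.593). In sham hearts Myom2, an M-band protein, rose over age (0.80 ± 0.10, adjusted p = 4.2e-05) and Obsl1, a relative of obscurin, fell by 0.70 on the log2 scale (SE 0.09, adjusted p = 3.9e-05).

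Of 14 genes for the folding, turnover and light chain phosphorylation of myosin 13 were tested, 0 were called at P3 and 1 lower at P7, beside 8.59% of all genes tested, with medians of 0.02 and -0.01. With the gene length trend removed Trim54 was also called lower at P7 (-0.79, adjusted p = 4.3e-04). At an unadjusted p, and with DESeq2, 1 was called higher at P3, Trim54. The kinase gene Mylk4 fell by 1.94 on the log2 scale under PAB at P7 (SE 0.14, adjusted p = 2.7e-07), from 44.1 ± 6.52 to 11.5 ± 2.78 CPM. It rose in sham hearts over age (1.21 ± 0.11, adjusted p = 2.9e-06), as did Trim54, a muscle ubiquitin ligase (1.19 ± 0.14, adjusted p = 2.7e-05).

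Of 21 transcriptional regulators of Myh6 and Myh7 20 were tested, 0 were called at P3, and 4 were called lower and 0 higher in PAB at P7, where 8.59% of all genes tested were called lower and 9.63% higher. The 0 at P3 was also 0 at an unadjusted p and with DESeq2. The genes called at P7 were Ncor1, a corepressor of nuclear receptors (-0.69 ± 0.07, adjusted p = 6.4e-06), Med13 of the Mediator complex (-0.69 ± 0.10, adjusted p = 6.1e-05) and, named after their values were seen, the thyroid hormone receptor gene Thrb (-1.22 ± 0.20, adjusted p = 2.0e-04) and the retinoid X receptor gene Rxrg (-0.72 ± 0.15, adjusted p = 0.00109). Regulator genes were long, with a median of 5971 exonic bases, and with the gene length trend removed Ncor1 (-0.35) and Med13 (-0.40) fell short of the fold threshold while Thrb and Rxrg were still called. With Xist class as a term the 4 were called, and Mef2d, named after its value was seen, as well (-0.60, adjusted p = 0.0290). The median of the list at P7 was -0.33, and -0.15 with the trend removed, against -0.004 for all genes tested. Thrb and Rxrg both rose over age in sham hearts, by 0.95 ± 0.17 and 1.59 ± 0.14 (log2, adjusted p = 6.7e-04 and 1.3e-06).

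At the Myh7 locus the antisense RNA gene Mhrt moved opposite to Myh7 in sham hearts over age and at P7. It averaged 32.4 ± 1.098 CPM in sham and 30.4 ± 2.85 in PAB hearts at P3, and 58.9 ± 6.71 in sham and 31.5 ± 5.60 in PAB hearts at P7. Mhrt rose over age in sham hearts (0.86 ± 0.10, adjusted p = 2.4e-05), and fell by 0.91 on the log2 scale under PAB at P7 (SE 0.12, adjusted p = 2.8e-05). The exonic bases it shares with Myh7 limit both readings.

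The bases before the start of Myh7, the gene with the largest PAB difference of the 8, are shown with the letters of 1 searched motif in capitals (RefSeq, GRCm38.p6, chr14:54994627-54994876, minus strand, 250 bases).
Myh7 promoter: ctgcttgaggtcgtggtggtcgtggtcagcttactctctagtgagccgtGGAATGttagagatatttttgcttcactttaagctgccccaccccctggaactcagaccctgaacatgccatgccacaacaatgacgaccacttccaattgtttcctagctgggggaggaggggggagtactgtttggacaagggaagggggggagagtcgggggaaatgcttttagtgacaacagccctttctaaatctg
Windows of 300 bases, 250 before and 50 after the start, were searched on both strands for 4 motifs that do not overlap each other in these windows. The motif of nuclear receptors was searched as AGGTCA. That of TEAD factors was searched as CATTCC. That of GATA factors was searched as AGATAA. The letters TATAAA were searched for the TATA box. CATTCC, in capitals above as its reverse complement GGAATG, was found in the windows of Myh6, Mybpc2 and Myh10 and in the first of 2 windows of Myh7, whose second window (chr14:54994500-54994799) held 0 of the 4 motifs, and in 14.7% of all 32851 promoter windows. Myh7b held AGGTCA and AGATAA, Mybphl held AGATAA, and Myh6 and Myh9 held TATAAA, motifs found in 16.3%, 11.2% and 13.6% of all windows in the order listed. Mybpc3 held 0 of the 4. A match is a string of letters and says nothing about binding.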

How the data were processed

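The authors aligned reads with STAR 2.5.2b to GRCm38 with a Gencode annotation (the labels also name mm10) and deposited whole-number counts per gene, 1 column for each of the 11 libraries, without normalization. The counting tool, strand setting and annotation release are not given in the sources used here. Groups came from the sample titles. The 8 genes and all lists were chosen with earlier results of these data known.

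Counts were analysed in R 4.3.3 with edgeR 4.0.16 (TMM, filterByExpr, quasi-likelihood test on all 11 libraries in 4 groups, Benjamini-Hochberg adjustment over 15808 genes). SE is the absolute log2 fold change divided by the square root of F. DESeq2 1.42.0, other scalings and filters, a fit of each comparison alone, a replicate block, removal of a lowess trend (span 0.3) with exonic length, a term for Xist above 100 CPM, and leaving out each library were alternatives, as were bias-adjusted residuals and the lists under the length and Xist fits, both chosen after seeing the data. Shares were compared by exact permutation tests over libraries (scipy 1.17.1). Exon positions and lengths came from GENCODE M21 (GRCm38), where 47900 of 50600 gene names had a length, and sequences from RefSeq, where all 8 genes had a promoter window. Of each list, genes are named when called with a mean of at least 10 CPM, up to 3 in each direction and comparison. Depth was 19274045 to 26820228 counts per library. No pair of libraries of a group agreed within sampling noise. The steps were tested on simulated data. Figures were drawn with matplotlib 3.10.9.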

Additional observations from a re-analysis of the deposited data

Results flagged for a closer look

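The PAB effect at P7 differed from that at P3 for 5 of the 8 genes by the interaction term of edgeR's quasi-likelihood test with Benjamini-Hochberg adjustment, as it did for 25.9% of all genes tested. The difference of the 2 effects (log2, P7 minus P3) was -0.97 ± 0.12 (SE) for Myh6 (adjusted p = 1.1e-04), 1.00 ± 0.34 for Myh7 (0.0425), -0.50 ± 0.17 for Myh7b (0.0431), -0.78 ± 0.11 for Myh9 (2.8e-04) and -0.37 ± 0.09 for Myh10 (0.00801). Over the alternatives the adjusted p stayed at or below 0.00334 for Myh6 and 0.0206 for Myh9, and ranged up to 0.165 for Myh7, 0.234 for Myh7b and 0.308 for Myh10. The P7 libraries differ between PAB and sham in their Xist and Ddx3y levels and in the gene length trend as well as in the operation. Within P7 Xist class and operation coincide. The fit with the Xist term rests on P3 sham replicate 1 alone, so the 2 cannot be told apart there. The part of the gene length trend was addressed only by the fit with that trend removed.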

How the results depend on the processing

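At P3 the number of the 8 genes called was 1, and 2 (Myh7 and Mybpc2) without a filter on low counts, with or without bias-adjusted residuals, with DESeq2, with an unadjusted p, with only the groups compared, and with the gene length trend removed plus a replicate block. In these fits 0.141% to 0.955% of all genes tested were called higher. At P7 3 were called, 6 without a fold threshold (22.8% of all genes higher and 22.1% lower), 2 (Myh6 and Myh7) with the length trend removed (6.40% and 7.07%), with or without the block, and 4 (Myh7b added) with Xist class as a term (7.67% and 5.93%). For sham hearts over age 1 was called, 3 without a fold threshold (16.2% and 16.8% of all genes) and 2 with the length trend removed, with or without the block (5.48% and 5.92% without it). For PAB hearts over age 4 were called, and 2 (Myh6 and Myh9) with the length trend removed, with or without the block (6.31% and 7.34% of all genes without it). For the interaction 5 passed, and 3 with the length trend removed, with or without the block (Myh6, Myh7 and Myh9, beside 10.5% of all genes positive and 8.82% negative without it), or with Xist class as a term (Myh6, Myh7b and Myh9, beside 7.84% and 6.65%). Mybpc2 was added without a filter on low counts (beside 8.39% and 7.75% of all genes) and with an unadjusted p (19.4% and 18.5%). Myh7 was lost with DESeq2 (12.2% and 12.5%) and Myh7b with total-count scaling (16.3% and 9.02%). Without 1 library each, the counts were 0 to 2 at P3, 3 to 4 at P7, 1 to 2 and 3 to 4 over age in sham and PAB hearts, and 3 to 6 for the interaction. The count was 0 at P3 without P3 PAB replicate 1 or 2 and 2 without P7 sham replicate 1, 2 over age in sham hearts without P3 sham replicate 1 or 2 or P7 sham replicate 2, and 3 for the interaction without P3 sham replicate 1 or P3 PAB replicate 3. Without a P7 PAB library, the lone sample left is assumed to vary like the other groups.

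Samples with the same number had correlations of 0.083, 0.079 and 0.144 between P3 sham and P3 PAB, against -0.085 to 0.005 for P3 pairs with other numbers, and of -0.008 and -0.050 at P7. Of the P3 libraries, 3 correlated best with a P7 library of another number (0.082 to 0.116). Not every pair was above 0.1, so the numbers were not taken to pair libraries. The replicate block alone moved 0 calls of the 8 genes, took the adjusted p of Mybpc2 at P7 to 0.0648, and turned only small age differences in PAB hearts, Myh7 to -0.004 and Mybpc2 to -0.040.

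Among single genes and ratios, 13 values changed sign without 1 library, besides 2 of the Myh10 share within age, and 21 did under other alternatives, none of them a called value. Total-count scaling turned Myh6 and Mybpc3 in sham hearts over age to -0.191 and -0.217, Myh7, Mybpc3 and Mybpc2 in PAB hearts over age to -0.237, -0.178 and -0.225, and the interaction of Mybpc3 to 0.040. Myh10 at P3, -0.003, turned to 0.004 without a filter, 0.033 with the length trend removed, 0.034 with the block as well and 0.014 with Xist class as a term. Removing the length trend turned Mybpc2 and Mybphl in PAB hearts over age to -0.028 and -0.077, and Mybpc2 to -0.086 with the block. Xist class as a term turned Mybphl to -0.805 at P7, 0.563 in sham hearts over age and -0.284 for the interaction, Myh7b in sham hearts over age to 0.011 and the interaction of Mybpc3 to 0.040. Without 1 library each, values spanned 0 for Myh7 in PAB hearts over age (-0.247 to 0.274), Myh7b (-0.170 to 0.003), Mybphl (-0.979 to 0.090) and Myh10 (-0.025 to 0.014) at P3, and the interaction of Mybpc3 (-0.076 to 0.034). So did the Myh10 share within age (-0.0677 to 1.39 points) and the Mybpc3 ratio in sham hearts over age (-0.0398 to 0.0121, log2). The Mybpc3 ratio within age was 0.469 to 0.531, with p = 0.0625 to 0.0833 in exact permutation tests without 1 P7 library, where fewer splits exist. The cause of these changes was not tested, other than by the construction of each alternative. Mybphl rests on 30 to 120 counts per library and P7 PAB on 2 libraries.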
